A study of Mus musculus with 24 samples.

Results

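The response of young cortical neurons to a short depolarization was examined in 4 of the 24 libraries of the series, chosen by their labels alone: 2 from depolarized cultures and 2 from resting cultures. All 4 came from wild-type mouse cortex dissected at embryonic day 16.5 and kept for 7 days in vitro (DIV7). Both groups were silenced overnight with 1 µM tetrodotoxin, which blocks sodium channels, and 100 µM D-AP5, which blocks NMDA receptors, and both received 0.1% DMSO. The depolarized group then received 50 mM KCl for 30 min, and the resting group was left unstimulated. Poly(A) RNA was sequenced, and the labels' protocol counts the cortex of each embryo as a biological replicate. All 4 DIV7 libraries nevertheless held both Xist, a transcript of female cells, and transcripts of the Y chromosome, so whether a library is a single embryo is not settled, and with n = 2 the p-values measure only the spread between these samples. The other libraries came from DIV18 cultures of the same embryonic age that carried CRISPR guide RNAs and whose total RNA was sequenced. Of these, 2 resting and 2 depolarized libraries with a non-targeting guide, silenced and stimulated in the same way, serve below to compare responses. The study asked about targets of the BAF chromatin remodelling complex in neurons, and the comparison here shows how the resting transcriptome responds to activity.

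Raised external potassium depolarizes neurons and opens voltage-gated calcium channels. Calcium then acts through kinases on transcription factors that are already present, such as CREB and SRF. The first genes they turn on encode further transcription factors, feedback inhibitors of signalling, secreted factors and synaptic proteins, while unstable mRNAs whose synthesis stops can be lost over the same time.

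The 4 libraries held between 24536056 and 30135576 estimated counts. Levels are given as counts scaled to a common library total after TMM normalisation (CPM), with the libraries of a group in replicate order. The 7 pan-neuronal markers summed to between 5850 and 5876 CPM at rest and between 6024 and 6028 CPM after KCl. Among them Tubb3, a neuronal tubulin, fell, and Map2 and Dcx, which bind microtubules, rose. The 5 glutamatergic markers summed to between 840 and 891 CPM at rest and between 790 and 817 CPM after KCl, without overlap, and 2 of them, Neurod6 and Tbr1, were called lower. The 8 markers of astrocytes and radial glia summed to between 683 and 742 CPM at rest and between 634 and 664 CPM after KCl, with Gfap and Slc1a3 called lower and Sox9 called higher. The 7 GABAergic markers differed between libraries of the same state, from 233 to 334 CPM at rest and from 258 to 399 CPM after KCl. Microglial markers summed to at most 2.93 CPM and vessel or fibroblast markers to at most 9.53 CPM in any library. The part of these cell types in the results was not tested, and in bulk RNA fewer cells of a type cannot be told apart from less RNA per cell.

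After 30 min of KCl, more genes were called lower than higher. Of 19822 genes tested, 1916 (9.67%) were called lower and 1455 (7.34%) higher at an adjusted p under 0.05 (quasi-likelihood F test of edgeR, two-sided, Benjamini-Hochberg over all genes tested). Most changes were small: 945 of the falls and 731 of the rises were under 1.5-fold, while 521 falls and 557 rises reached 2-fold. At rest the median level was 0.374 CPM for those 557 rises and 2.81 CPM for those 521 falls, against 9.69 CPM over all genes tested. Every called gene had no overlap between the groups. DESeq2 called 1078 of the same falls and 820 of the same rises. Leaving out the first resting library left 823 falls and 636 rises, and leaving out the second left 1039 and 752. Without the first KCl library 848 rises were called. In the fits that leave out 1 library the lone library of a state is assumed to vary like those of the other state.

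The largest changes were ranked among called genes at 5 CPM or more in the higher group, without overlap between the groups and without predicted-gene symbols. Hes5, described with the Notch genes below, was under that level and so not ranked. The deepest fall of the ranking was that of Txnip, the thioredoxin-interacting protein, an alpha-arrestin that restrains glucose uptake. It was at 50.4 and 46.2 CPM at rest and at 2.43 and 1.86 CPM after KCl, a 22.4-fold fall (chr3:96557957-96561883, GRCm38; log2 fold change -4.49, SE 0.126, adjusted p 4.92e-06, edgeR). No other gene of the 20 largest falls lost as much of its level. Its relative Arrdc3, which steers membrane receptors to degradation, was at 84.8 and 102 CPM at rest and at 27.8 and 25.7 CPM after KCl (log2 fold change -1.80, SE 0.0982, adjusted p 1.13e-04, edgeR). In the list of alpha-arrestins, their Mondo activators, thioredoxin and glucose transporters, 4 of 12 members were called lower and 1 higher (median log2 fold change -0.14, against 0.00 over all genes tested). Arrdc4 fell by 0.46 on the log2 scale, and the member called higher was Slc2a3, the neuronal glucose transporter, with a log2 fold change of 0.44. Mlxip, an activator of Txnip transcription, was at 63.7 and 58.7 CPM at rest and 56.6 and 53.1 CPM after KCl and was not called.

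Several of the other large falls were in transcription factors of progenitors and growing cells. Mycn, which drives proliferation of neural progenitors, was at 139 and 153 CPM at rest and at 34.1 and 36.3 CPM after KCl, a 4.15-fold fall (SE 0.0676 on the log2 scale, adjusted p 9.17e-06, edgeR). Insm1, a zinc finger factor of newborn neurons and neuroendocrine cells, was at 25.7 and 25.9 CPM at rest and at 7.64 and 6.52 CPM after KCl. Plagl2, another zinc finger factor, was at 8.21 and 8.18 CPM and fell to 2.37 CPM in both KCl libraries. In all of these the resting libraries lay well above both KCl libraries, as the plot of the largest changes by library shows. Myc, the relative of Mycn, was at 25.9 and 24.5 CPM at rest and at 9.90 and 10.8 CPM after KCl (log2 fold change -1.28).

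RNA-binding and ubiquitin pathway genes were also among the 20 largest falls. Zcchc3, which encodes a zinc knuckle protein that binds nucleic acids, went from 14.4 and 15.0 CPM to 2.74 and 2.92 CPM. Rbm24, an RNA-binding splicing regulator, went from 16.3 and 20.02 CPM to 3.79 and 4.19 CPM. Skp2, the substrate receptor of a ubiquitin ligase that acts on cell cycle inhibitors, went from 13.1 and 14.7 CPM to 4.29 and 3.97 CPM. In these 3 genes both KCl libraries lay far below both resting ones. Spaca6, known as a sperm membrane protein needed for fertilization, was at 14.1 and 10.96 CPM at rest and at 1.72 and 1.68 CPM after KCl. The remaining members were Srrm4os, Zfp72, Lrch4, Zfp128, Zscan2, Snhg20, Miip, Zfp87, Col15a1, Zfp748 and Dvl2, an adaptor of Wnt signalling, with log2 fold changes between -2.83 and -1.77. Srrm4os is annotated antisense to a neighbouring gene, and Lrch4 overlaps the predicted gene Gm20605 on the same strand; whether the authors' counting used strand is not given in the sources used here, so these 2 are uncertain.

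**Figure D1:**
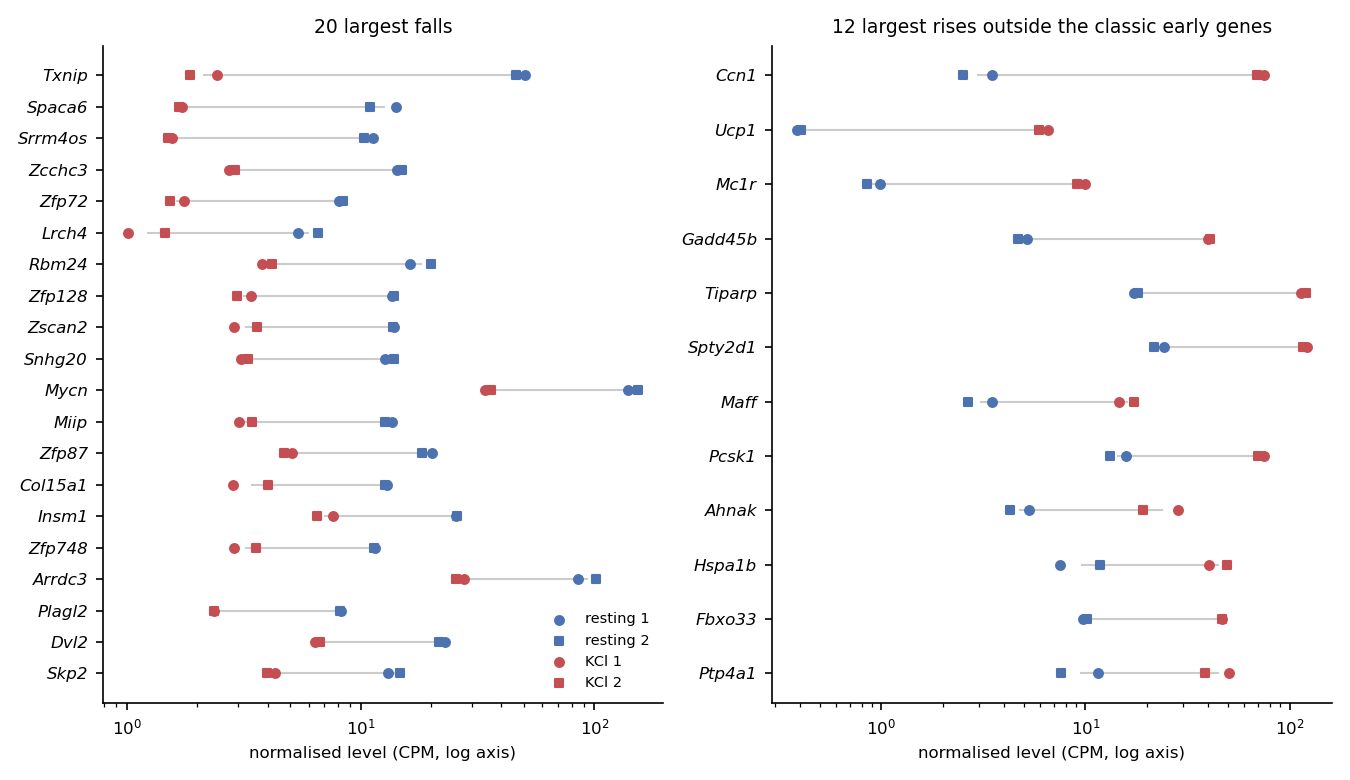
Normalised level (CPM, log axis) of the 20 largest falls (left) and the 12 largest rises outside the classic early genes (right) in each of the 4 libraries; circles and squares are replicates 1 and 2, blue is rest, red is KCl, and grey lines join the group means. Genes were chosen to have no overlap between the groups, so both KCl points lie on the same side of both resting points by that choice. Changes run from Txnip (log2 fold change -4.49) to Ccn1 (4.58).

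In the same ranking, the largest rise outside the classic early genes was that of Ccn1, which encodes a secreted matrix protein and is a target of SRF. It was at 3.47 and 2.50 CPM at rest and at 75.1 and 69.6 CPM after KCl, a 24.0-fold rise (log2 fold change 4.58, SE 0.126, adjusted p 4.42e-06, edgeR). Gadd45b, a growth arrest and DNA demethylation factor, went from 5.16 and 4.67 CPM to 39.9 and 40.8 CPM. Tiparp, a mono-ADP-ribosyltransferase, went from 17.2 and 18.2 CPM to 114 and 120 CPM. For each of them both KCl libraries lay far above rest. Spty2d1, a histone chaperone, went from 24.4 and 21.6 CPM to 121 and 116 CPM. Pcsk1, the convertase that cleaves neuropeptide precursors, went from 15.7 and 13.2 CPM to 75.2 and 70.0 CPM. Fbxo33, the receptor subunit of a ubiquitin ligase, went from 9.72 and 10.2 CPM to 46.5 and 46.7 CPM. These 3 rises were of similar size, from 4.68-fold in Fbxo33 to 5.15-fold in Spty2d1. The other members were Hspa1b, described with the chaperones below, and Maff, a small Maf factor (log2 fold change 2.36), Ahnak, a giant scaffold protein (2.31), and Ptp4a1, a phosphatase (2.22). The symbol Ptp4a1 stands for a pair of overlapping gene entries, so its counts are uncertain.

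A pair of the largest rises were in genes best known from other tissues. Ucp1, the uncoupling protein of brown fat mitochondria, was at 0.386 and 0.403 CPM at rest and at 6.56 and 5.94 CPM after KCl (log2 fold change 3.97, SE 0.219, adjusted p 1.17e-04, edgeR). Mc1r, the melanocortin receptor of pigment cells, was at 0.982 and 0.846 CPM at rest and at 9.94 and 9.04 CPM after KCl (log2 fold change 3.36, SE 0.173, adjusted p 8.55e-05, edgeR). Both were low at rest, and each KCl library lay well above both resting ones. Mc1r begins 3272 bases downstream of the end of Tcf25 on the same strand, and Tcf25 itself had a log2 fold change of 0.02. Among protein-coding genes called higher by at least 2-fold, 21.3% had a tested gene on the same strand ending within 5000 bases upstream, against 13.4% of all protein-coding genes tested. That upstream gene had itself risen by at least 2-fold for 8 of these 366 genes (2.19%), against 51 of all 15326 protein-coding genes tested (0.333%). Many of the 366 were near the floor at rest, with a median of 0.458 CPM, against 20.1 CPM for all protein-coding genes tested.

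From the ends of the ranking, the 3 largest rises and 3 largest falls with an entry in the RefSeq promoter table (build GRCm38.p6) were taken. The sequences before their start sites are shown. Each is the 250 bases before the RefSeq start, 5′ to 3′ on the gene's strand. Capitals mark matches on either strand to the CRE core TGACG (which the full CRE TGACGTCA contains) or to the CCAAT box. The positions are chr3:145649986-145650235 (minus strand) for Ccn1, chr8:83290098-83290347 (plus) for Ucp1, chr8:123406832-123407081 (plus) for Mc1r, chr3:96557707-96557956 (plus) for Txnip, chr17:17830725-17830974 (plus) for Spaca6 and chr2:152415045-152415294 (minus) for Zcchc3. Each ends directly before the RefSeq start of the gene, and the Spaca6 stretch lies inside the longer gene of the GENCODE annotation. Srrm4os has no entry in the table.
Ccn1: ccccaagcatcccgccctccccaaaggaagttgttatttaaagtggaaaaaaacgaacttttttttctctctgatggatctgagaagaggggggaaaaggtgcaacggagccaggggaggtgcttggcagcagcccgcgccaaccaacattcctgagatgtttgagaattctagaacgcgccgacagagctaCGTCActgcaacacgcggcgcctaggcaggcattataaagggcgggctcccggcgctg
Ucp1: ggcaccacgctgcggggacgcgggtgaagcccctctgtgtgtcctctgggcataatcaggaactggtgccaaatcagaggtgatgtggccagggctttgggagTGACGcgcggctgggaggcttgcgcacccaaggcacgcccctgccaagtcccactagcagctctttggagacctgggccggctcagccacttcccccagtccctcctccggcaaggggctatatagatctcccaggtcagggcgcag
Mc1r: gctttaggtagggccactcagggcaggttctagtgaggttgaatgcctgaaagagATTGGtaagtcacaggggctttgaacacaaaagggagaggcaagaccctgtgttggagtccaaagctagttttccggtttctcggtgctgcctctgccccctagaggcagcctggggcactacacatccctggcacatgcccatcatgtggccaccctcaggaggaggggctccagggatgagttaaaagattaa
Txnip: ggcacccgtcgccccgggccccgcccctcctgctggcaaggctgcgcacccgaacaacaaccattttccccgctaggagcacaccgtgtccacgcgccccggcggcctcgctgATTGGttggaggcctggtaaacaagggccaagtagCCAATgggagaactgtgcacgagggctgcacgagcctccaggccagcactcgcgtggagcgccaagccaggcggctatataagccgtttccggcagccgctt
Spaca6: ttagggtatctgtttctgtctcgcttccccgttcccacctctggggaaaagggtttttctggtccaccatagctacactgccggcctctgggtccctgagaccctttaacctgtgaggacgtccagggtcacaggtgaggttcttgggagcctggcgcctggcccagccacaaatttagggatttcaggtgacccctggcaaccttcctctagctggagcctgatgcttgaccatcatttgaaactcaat
Zcchc3: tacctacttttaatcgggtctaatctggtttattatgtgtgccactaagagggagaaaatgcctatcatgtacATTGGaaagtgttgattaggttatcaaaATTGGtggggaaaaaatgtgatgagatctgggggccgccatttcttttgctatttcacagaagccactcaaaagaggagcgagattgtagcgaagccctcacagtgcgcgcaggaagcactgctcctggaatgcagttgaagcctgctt
Ccn1 and Ucp1 each held 1 CRE core, and Txnip and Zcchc3 each held 2 CCAAT boxes; Mc1r held 1 CCAAT box and Spaca6 neither motif. These matches are letters in the window, not measured binding. Over protein-coding genes tested that matched the table by symbol (11897 of 15300), the CCAAT box (CCAAT, both strands) was in 46.3% of promoters of genes called lower by at least 2-fold, 30.7% of those called higher by at least 2-fold and 36.1% of all those tested. The full CRE was in 3.65% of promoters of genes called higher by at least 2-fold, 2.11% of those called lower by at least 2-fold and 2.60% of all tested. For the CRE core the shares were 21.5%, 16.8% and 25.2%, and for genes called higher by under 2-fold the shares were 32.6% for the core and 4.45% for the full CRE, so the larger and the smaller rises lay on opposite sides of all genes for the core. Over all 27025 promoters of the table the shares were 34.5% for the CCAAT box, 1.62% for the full CRE and 17.9% for its core. Median promoter GC content was 54.8% for falls of at least 2-fold and 56.2% for rises of at least 2-fold. It was 59.2% for all tested and 64.8% for the smaller rises. The core shares of these groups rose in the same order, and the part of GC content in the motif shares was not tested.

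Signalling inhibitors and early effectors were among the rises. The list counts below stand beside shares over all genes tested of 7.34% called higher and 9.67% called lower. Of 20 classic early-response genes 19 were called higher, and Fos, for reference, went from 3.65 and 4.47 CPM to 598 and 618 CPM. Among 20 inhibitors of receptor tyrosine kinase and MAP kinase signalling, 5 were called higher and 3 lower (median log2 fold change 0.04). Dusp6, a phosphatase of ERK, was at 18.6 and 18.1 CPM at rest and at 62.9 and 58.6 CPM after KCl. Dusp1, a phosphatase of p38 and JNK, went from 18.1 CPM in both resting libraries to 69.8 and 68.1 CPM. Spry2 and Errfi1, inhibitors of growth factor receptor signalling, rose by less, with log2 fold changes of 0.66 and 0.71. The falls, led by Spry4 (-0.38), were small and depended on single libraries: 2 were left without the first KCl library, and without any other single library 0 were called lower by edgeR, with 4 or 5 at an unadjusted p under 0.05. DESeq2 called 0 lower with all libraries.

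Within the CREB pathway (23 genes: the CREB family, its coactivators, SIK kinases and cAMP phosphodiesterases) 7 members were called higher and 4 lower. Crem, whose short forms repress CREB targets, went from 9.79 and 9.59 CPM to 35.8 and 35.2 CPM (log2 fold change 1.87). Sik1, a kinase that keeps CREB coactivators out of the nucleus, went from 72.8 and 65.8 CPM to 103 CPM in both KCl libraries. The coactivators themselves were lower: Crtc3 went from 22.3 and 21.8 CPM to 15.9 and 13.4 CPM, and Crtc2 from 17.7 and 17.0 CPM to 12.7 and 12.4 CPM. Crtc1 fell by 0.23 on the log2 scale, so all 3 coactivator genes were called lower, while Sik1 and Crem were called higher. The rise of Crem as a gene does not show which of its forms rose, and its transcript usage, given below, did not pass. The counts of 7 higher and 4 lower depended on single libraries. Without the first KCl library or without the second resting library, 2 were higher and 2 lower; without the second KCl library 2 were lower. Without the first resting library 3 were higher and 0 lower by edgeR, with 5 lower at an unadjusted p under 0.05; with all libraries DESeq2 called 2 lower.

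Among 31 secreted growth factors, neuropeptides and granule proteins, 6 were called, all higher (median log2 fold change 0.14). Bdnf, the neurotrophin, was at 27.5 and 22.1 CPM at rest and at 61.1 and 46.7 CPM after KCl, and Vgf, a neuropeptide precursor, at 293 and 233 CPM and then 491 and 385 CPM. Lif, a cytokine, had a log2 fold change of 1.52. Of 15 activity-regulated synaptic and membrane effectors, 9 were called higher and 1 lower. Homer1, a scaffold of the postsynaptic density, went from 94.7 and 92.8 CPM to 315 and 304 CPM, and Gem, a GTPase that inhibits calcium channels, had a log2 fold change of 1.26. The member called lower was Amigo3, a cell adhesion protein, which went from 7.96 and 8.34 CPM to 3.65 and 3.90 CPM.

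Genes of the NF-kB pathway moved in both directions. Of 15 members tested, 5 were called higher and 2 lower. Without the first resting library 3 were higher and 1 lower, and 1 was lower without the first KCl or the second resting library. Nfkb2, Nfkbid and Nfkbiz, which encode a precursor subunit and a pair of nuclear IkB proteins, had log2 fold changes of 1.23, 1.16 and 1.27, and Ier3, a target of the pathway, 1.29. Rela, the activating subunit, was at 28.8 and 26.6 CPM at rest and at 16.4 and 18.2 CPM after KCl. Among the 16 SOCS and cytokine receptor genes, the 2 members called, Socs1 and Socs4, were both lower, by 1.66 and 0.46 on the log2 scale; 1 was called without the second KCl library or without either resting library.

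The SRF list (SRF, cofactors and cytoskeletal targets) did not move as a block. Of 17 members, 2 were called higher, Ccn1 and Srf itself (40.3 and 39.4 CPM at rest, 59.0 and 59.6 CPM after KCl), and 1 lower. The lower member was Flna, which encodes the actin cross-linker filamin A: it was at 648 and 605 CPM at rest and at 314 and 317 CPM after KCl (log2 fold change -0.99, SE 0.0450, adjusted p 4.76e-05, edgeR). Both KCl libraries were thus at about the same level, far below rest.

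Notch pathway genes were more often lower than higher. Of 25 tested, 6 (24%) were called lower and 1 (4%) higher, against 9.67% and 7.34% of all genes tested. A negative log2 fold change was found in 18, and the median was -0.17. The rise, that of Dner (log2 fold change 0.17), was called with all libraries by edgeR and DESeq2; 0 were called higher by edgeR without the first KCl library or either resting library, with 1 at an unadjusted p under 0.05 in each. Hes5, the effector of Notch that keeps progenitors undifferentiated, was at 3.68 and 3.38 CPM at rest and at 0.169 and 0.328 CPM after KCl (log2 fold change -3.82, SE 0.320, adjusted p 7.77e-04, edgeR). Dll1, a Notch ligand, went from 21.5 and 23.4 CPM to 12.1 and 11.2 CPM. Lfng, which glycosylates Notch receptors, and Hey2, a further effector, fell by 1.41 and 1.30 on the log2 scale. Hes1, the other classical effector, was at 1.61 and 1.73 CPM at rest and at 1.42 and 1.53 CPM after KCl and was not called. Beside these values, the 8 astrocyte and radial glia markers summed to between 634 and 664 CPM after KCl against 683 to 742 CPM at rest, and the 6 markers of dividing progenitors to between 62.6 and 63.1 CPM against 61.7 to 62.8 CPM. The part of these cells in the Notch values was not tested.

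Of 16 Krueppel-like zinc finger factors tested, 5 were called lower and 1 higher (3 lower without the first resting library). Klf11 went from 26.0 and 27.0 CPM to 11.6 and 11.8 CPM, Klf6 from 94.0 and 94.3 CPM to 56.9 and 60.2 CPM, and Klf10 fell by 0.76 on the log2 scale. The member called higher was Klf4, an early-response gene that was also in the classic list, which went from 2.28 and 2.62 CPM to 32.3 and 35.1 CPM. In the developing cortex list (25 transcription factors of progenitors and neuron identity), 5 were called higher and 3 lower. Pou3f2, an upper layer factor, fell by 0.62 and Tbr1, a deep layer factor, by 0.30 on the log2 scale, while Sox9, a glial factor, and Fezf2, a deep layer factor, had log2 fold changes of 0.59 and 0.32. The 5 rises became 1 to 3 when any 1 library was left out, and 1 fall was called without the second resting library.

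Other developmental pathways had few members called. Of 26 Wnt genes 3 (11.5%) were called higher and 2 (7.69%) lower, shares near those over all genes. Myc was the larger fall, Fzd8, a Wnt receptor, fell by 0.66 on the log2 scale, and Lrp6 and Gsk3b had log2 fold changes of 0.37 and 0.27. Of 29 BMP and TGF-beta genes 4 were called, all higher: Id1, a target of BMP, went from 1.54 and 1.49 CPM to 3.75 and 4.52 CPM, and Skil, Bambi and Smad2 had log2 fold changes of 0.52, 0.77 and 0.26. That count was 2 without the first KCl library or without the first resting library. Of 10 Hedgehog genes 0 were called by edgeR or DESeq2, and 1 was lower at an unadjusted p under 0.05 (edgeR). Among 19 clock genes Nfil3, a repressor, went from 36.4 and 39.5 CPM to 110 and 107 CPM, and Per1 had a log2 fold change of 0.52, while Bhlhe40 and Ciart fell by 0.59 and 0.63 on the log2 scale. Of these 2 falls 1 was called by DESeq2 and without any 1 library except the first resting one, where 0 were called by edgeR and 2 clock genes were lower at an unadjusted p under 0.05.

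**Figure D2:**
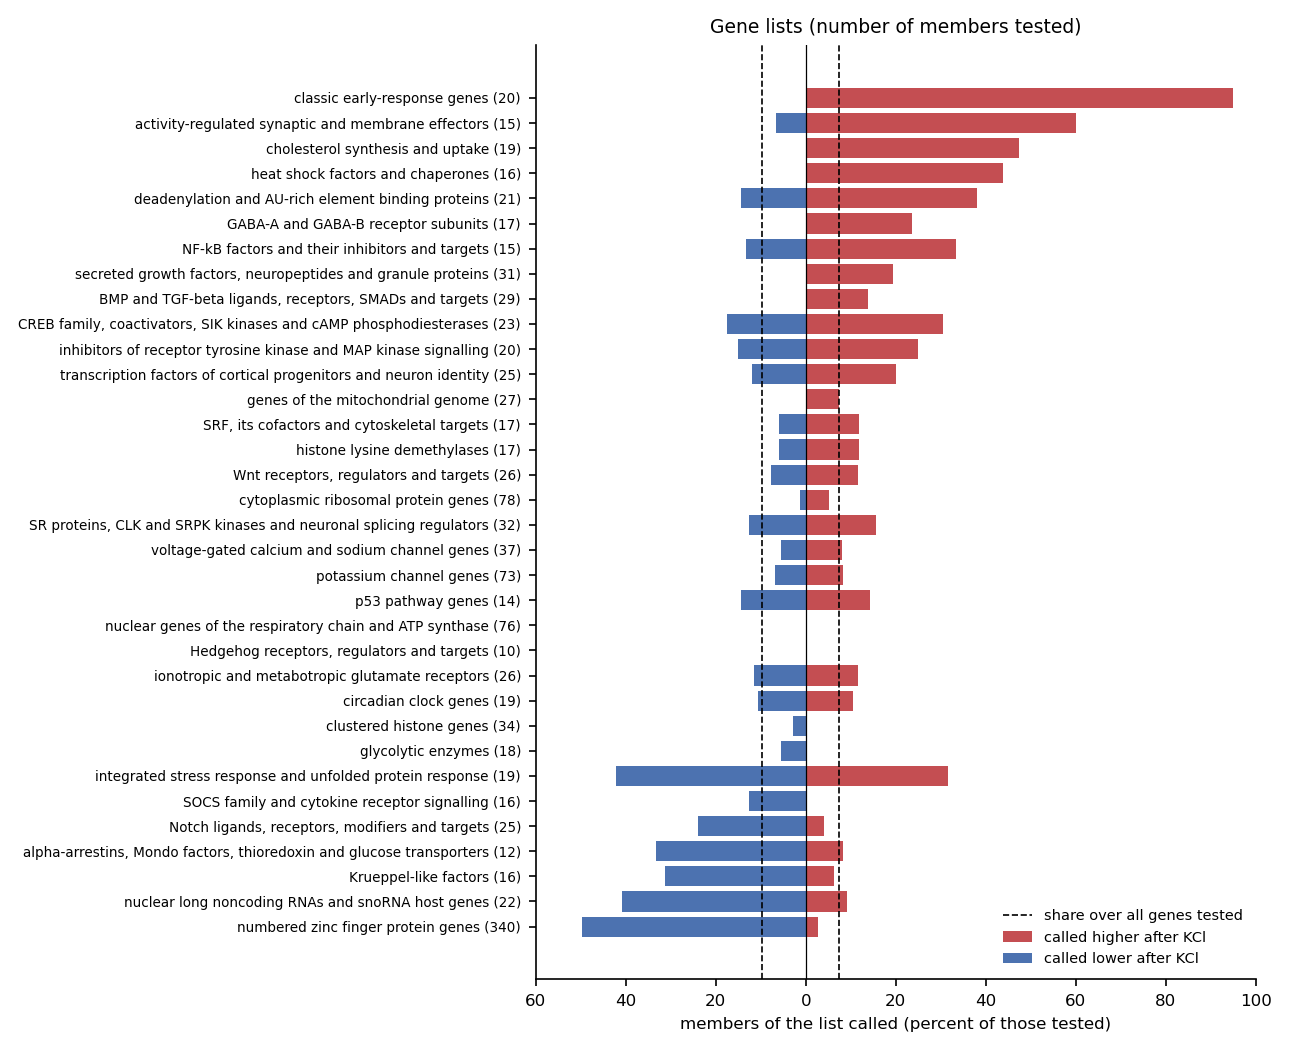
Share of the tested members of 34 gene lists called higher (red, to the right) and lower (blue, to the left) after KCl, in percent, with the number of members tested in brackets; dashed lines are the shares over all genes tested (7.34% higher, 9.67% lower), and a gene can be in more than 1 list. The classic early genes stand at the top and the numbered zinc finger genes, with 49.7% called lower, at the bottom.

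Stress genes moved in both directions. In the list of the integrated stress response and unfolded protein response, 6 of 19 members were called higher and 8 lower. Ppp1r15a, which directs dephosphorylation of the initiation factor eIF2alpha, went from 52.3 and 52.2 CPM to 110 and 101 CPM, and Dnajb9, a chaperone of the endoplasmic reticulum, from 38.9 and 41.6 CPM to 82.3 and 77.7 CPM. Atf4, the central transcription factor of the response, went from 294 and 268 CPM to 416 and 439 CPM. By contrast, Trib3, a pseudokinase and ATF4 target, went from 3.75 and 6.24 CPM to 0.913 and 1.09 CPM, and Ern1, the sensor kinase IRE1, from 11.9 and 11.5 CPM to 5.61 and 4.48 CPM. The count called lower fell to 4 without the first resting library, 2 without the second and 3 without the first KCl library, and was 4 with offsets for GC content.

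Several chaperone genes rose. Of 16 heat shock factors and chaperones 7 were called, all higher (median log2 fold change 0.18). Hspa1b went from 7.47 and 11.8 CPM to 40.1 and 49.5 CPM and its neighbour Hspa1a from 10.8 and 12.1 CPM to 29.6 and 31.7 CPM. These near-identical Hsp70 genes share reads, so the split between them is uncertain. Dnajb1, an Hsp40 co-chaperone, had a log2 fold change of 0.51, while Hsf1, the heat shock factor, was at 23.6 and 24.3 CPM at rest and 19.1 and 21.8 CPM after KCl and was not called. The count was 4 without the first resting library and 4 with offsets for effective length.

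Many cholesterol genes rose by small amounts. Of 19 genes of cholesterol synthesis and uptake 9 were called, all higher (47.4%, median log2 fold change 0.15), and the largest log2 fold change was 0.42. Cyp51, the sterol demethylase, was at 377 and 373 CPM at rest and at 501 and 488 CPM after KCl (log2 fold change 0.40, SE 0.0376, adjusted p 0.00124, edgeR). Msmo1, a sterol oxidase, went from 177 and 159 CPM to 228 and 220 CPM, and Idi1 and Insig1 had log2 fold changes of 0.40 and 0.39. Without the second resting library 4 were called. In the p53 list (14 genes) Gadd45b and Gadd45g were called higher, and Trp53inp1 and Gadd45a lower, by 0.78 and 0.72 on the log2 scale; 1 fall was called without any 1 library. Gadd45g went from 28.6 and 25.6 CPM to 101 and 93.4 CPM.

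Several genes that shorten mRNA tails rose. Of 21 deadenylation and AU-rich element binding genes, 8 (38.1%) were called higher and 3 lower (median log2 fold change 0.15; 5 higher without the second resting library). Zfp36, which binds AU-rich elements and recruits deadenylases, went from 0.772 and 1.09 CPM to 5.10 and 4.30 CPM. Tob2, an adaptor of the deadenylase complex, went from 28.1 and 24.2 CPM to 77.7 and 77.5 CPM, and Btg2, another adaptor, from 8.21 and 9.55 CPM to 29.7 and 34.7 CPM. Zfp36l2 had a log2 fold change of 1.01. The falls were 1 without the first library of either state, and 0 by edgeR without the second resting library, where 3 were lower at an unadjusted p under 0.05; DESeq2 called 2. Cnot3, a subunit of the deadenylase complex and the largest of them, was at 36.5 and 37.6 CPM at rest and 28.5 and 27.6 CPM after KCl.

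Many nuclear noncoding RNAs fell. Of 22 nuclear long noncoding RNAs and snoRNA host genes, 9 (40.9%) were called lower and 2 higher (1 higher without either resting library). Neat1, the scaffold of paraspeckles, went from 5.68 and 5.76 CPM to 1.86 and 1.57 CPM. Miat, a neuronal nuclear RNA, was at 581 and 554 CPM at rest and at 304 and 296 CPM after KCl (log2 fold change -0.92, SE 0.0421, adjusted p 4.82e-05, edgeR). Snhg20 and Snhg17 fell by 2.06 and 1.32, and the abundant Malat1 and Meg3 by 0.43 and 0.40, on the log2 scale. Malat1 ends without a usual poly(A) tail, so its level in poly(A) RNA is uncertain.

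Numbered zinc finger genes had the largest share called lower of the 34 lists. Of 340 tested genes with a Zfp symbol followed by a number, 169 (49.7%) were called lower and 9 (2.65%) higher, 281 had a negative log2 fold change, and the median was -0.36. Most encode C2H2 zinc finger proteins, many of them repressors of transposable elements and other sequences through a KRAB domain; Zfp36, counted above, is 1 of a few that bind RNA instead. Their levels summed to 9442 and 9407 CPM at rest and 7849 and 7932 CPM after KCl. The falls were modest, with 55 reaching 2-fold and a median log2 fold change of -0.77 among those called.

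Zfp87 was at 20.2 and 18.4 CPM at rest and at 5.07 and 4.70 CPM after KCl. Zfp128 went from 13.7 and 13.9 CPM to 3.41 and 2.95 CPM, Zfp748 from 11.5 and 11.4 CPM to 2.87 and 3.57 CPM, and Zfp72 from 8.10 and 8.38 CPM to 1.76 and 1.53 CPM. In these 4 genes both KCl libraries were far below rest. The falls were spread over the genome: on chromosome 7, 52 of 86 members were called lower (60.5%, against 12.5% of all genes tested on that chromosome), on chromosome 17, 22 of 41, on chromosome 13, 15 of 28, and on chromosome 8, 14 of 23. On chromosome 4 the count was 4 of 21 (19.0%, against 10.2% of all genes tested there), and the median log2 fold change of those 21 was 0.03. DESeq2 called 129 of the 169 lower, and 104 were lower without the first resting library. Near-identical paralogs are common in this family, so the split of reads between single members is uncertain.

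Their median genomic span was 17.2 kb, against 24.2 kb for protein-coding genes tested and 17.3 kb for all genes tested. Their median resting level was 16.0 CPM, against 20.1 CPM for protein-coding genes and 9.69 CPM for all genes. Of the 280 members at 5 CPM or more at rest, 156 (55.7%) were called lower. CCAAT boxes were in 50.0% of the promoters of the members called lower and in 46.6% of those of all members in the promoter table, against 36.1% of all genes tested. The falls among all protein-coding genes were commonest at a span of 10 to 20 kb, where 14.3% were called lower, and rarest from 100 to 200 kb (3.84%) and over 200 kb (4.38%). Rises showed another order, with 15.3% called higher over 200 kb and 5.68% from 20 to 50 kb. Rises of at least 2-fold were in short genes, with a median span of 11.9 kb among protein-coding genes, while smaller rises had a median of 66.2 kb. These groups also differed in resting level, with medians of 0.458 CPM for the larger and 83.5 CPM for the smaller rises. The part of resting level in the spans was not tested.

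**Figure D3:**
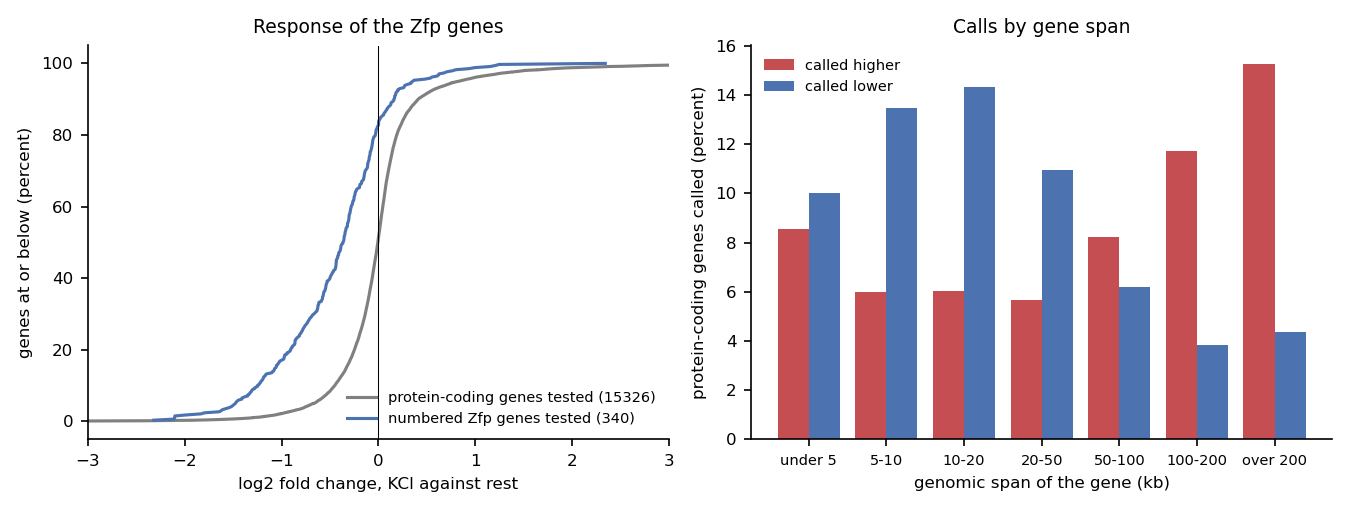
Left, cumulative share (percent) of the 340 numbered zinc finger genes (blue) and of the 15326 protein-coding genes tested (grey) at or below each log2 fold change, KCl against rest; right, percent of protein-coding genes called higher (red) and lower (blue) by genomic span in kb. The zinc finger curve lies to the left (median -0.36), and calls of falls peak at 10 to 20 kb while calls of rises peak over 200 kb.

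Splicing regulators were called in both directions at the gene level. Of 32 SR proteins, CLK and SRPK kinases and neuronal regulators, 5 (15.6%) were called higher and 4 (12.5%) lower. Over all genes tested the shares were 7.34% and 9.67%. Clk2 and Clk3, kinases of SR proteins, fell by 0.54 and 0.43 on the log2 scale, and Srrm2 and Mbnl1 had log2 fold changes of 0.37 each. The counts were 1 higher and 2 lower without the first resting library, 2 higher and 1 lower without the second, and 2 were lower without the first KCl library. Histone demethylases (17 genes) had 2 members higher, Kdm3a (log2 fold change 0.59) and Kdm4c (0.35), and 1 lower, Kdm2a (-0.41); 1 was higher without the first KCl or the second resting library.

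Potassium channels changed in few members. Of 73 potassium channel genes 6 were called higher and 5 lower, shares near those over all genes. Kcnk10, a two-pore leak channel, was at 71.4 and 73.4 CPM at rest and at 43.0 and 44.4 CPM after KCl, and Kcnh7, an ERG channel, went from 50.2 and 52.3 CPM to 77.4 and 79.0 CPM. Kcnk3 and Kcns3 fell by 0.47 and 1.31 on the log2 scale, but DESeq2 called neither (adjusted p 0.0680 and 0.382). Kcns3 was near the floor, at 1.12 and 0.886 CPM at rest and 0.406 and 0.401 CPM after KCl. The count of falls was 1 without the first library of either state and 3 without the second resting library, and that of rises was 3 without the first KCl library or the second resting library. Median-of-ratios scaling gave 3 falls.

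Of 37 voltage-gated calcium and sodium channel genes 3 were called higher and 2 lower. Cacna1d went from 41.9 and 43.5 CPM to 58.8 and 65.6 CPM, and Cacna2d1 had a log2 fold change of 0.32, while Cacna1c and Cacna1e each fell by 0.23 on the log2 scale. Of the falls 1 was left without the first KCl or the second resting library, and 0 by edgeR without the first resting library, with 4 at an unadjusted p under 0.05 (DESeq2 called 2 with all libraries). Glutamate receptors (26 genes) had 3 members called higher and 3 lower, among them Grin2a (-0.28), Grik4 (-0.56), Grm2 (0.42) and Grin2c (1.32). Without either KCl library 1 was lower. Without the first resting library 1 was higher and 0 lower by edgeR, with 5 lower at an unadjusted p under 0.05, and with all libraries DESeq2 called 1 higher and 3 lower. Of 17 GABA receptor subunits 4 were called, all higher, among them Gabra2, Gabra5 and Gabrb2 with log2 fold changes of 0.30, 0.24 and 0.23. That count was 0 without the first resting library by edgeR, where 8 were higher at an unadjusted p under 0.05 (DESeq2 called 3 with all libraries), and 1 without the first KCl or the second resting library. Over all genes tested 7.34% were called higher and 9.67% lower. The shares in the channel and glutamate receptor lists lay near these. The share called higher in the GABA receptor list was larger, within the limits just given. The summed GABAergic markers overlapped between the states, and their part in the receptor values was not tested.

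Housekeeping groups had few members called. Of 76 nuclear genes of the respiratory chain, 0 were called by edgeR or DESeq2 and 2 were at an unadjusted p under 0.05, with a median log2 fold change of 0.03 and a range of -0.20 to 0.12; offsets for GC content gave 4. Of 18 glycolytic enzymes 1 was called, Pfkp, which fell by 0.26 on the log2 scale (2 falls without the second library of either state). Of 78 ribosomal protein genes 4 were called higher and 1 lower, and 1 rise was left without the second KCl library. Without any other single library 0 were called higher by edgeR, with 6 to 13 at an unadjusted p under 0.05, and DESeq2 called 0 higher with all libraries. Of the falls 2 were called without the second KCl library and 0 by edgeR without the second resting library, with 1 at an unadjusted p under 0.05; DESeq2 called 1. Rpl12, the member called lower, went from 35.6 and 38.8 CPM to 27.2 and 28.0 CPM, and Rpl10, Rps13 and Rpl23 had log2 fold changes of 0.16, 0.18 and 0.19. In the mitochondrial genome 2 of 27 genes were called, both ribosomal RNAs: mt-Rnr2 went from 741 and 738 CPM to 1259 and 1130 CPM, and mt-Rnr1 had a log2 fold change of 0.22; 1 was called without the first KCl library or either resting library. Clustered histone genes, whose mRNAs mostly lack poly(A) tails, had 1 of 34 called, Hist2h4, which fell by 1.08 on the log2 scale. It was called by edgeR with all libraries and without the second KCl library; DESeq2 called 0, and edgeR called 0 without any other single library, with 1 or 2 at an unadjusted p under 0.05.

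Transcripts annotated with a retained intron took a smaller share of each library after KCl. Such transcripts keep an intron that the coding form removes, and many stay in the nucleus. They held 3.87% and 3.83% of all estimated counts at rest and 2.71% and 2.68% after KCl, so both KCl libraries were below both resting ones. Of 2954 genes with a mean of at least 50 counts on such transcripts, 1909 (64.6%) had a lower retained-intron share of the gene in both KCl libraries than in either resting library, 298 (10.1%) a higher one, and 747 overlapped. The median share went from 11.1% to 7.08%. Over these genes the counts on intron-holding transcripts had a median log2 ratio of -0.58, and the remaining counts of the same genes 0.00. Among the 2244 genes not called at the gene level, 1445 (64.4%) had the lower share.

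Some genes lost much of their retained-intron share, and those named here were chosen after their values were seen. Rsrp1, which encodes a protein rich in arginine and serine, was at 79.9% and 86.0% at rest and at 11.3% and 14.4% after KCl. Cpsf4, a subunit of the polyadenylation complex, was at 50.2% in both resting libraries and at 2.78% and 2.74% after KCl, and Atp11b, a lipid flippase, went from 61.0% and 58.8% to 10.0% and 9.30%. In all 3 the KCl libraries were far below rest. Clk4 went from 46.3% and 48.5% to 16.8% and 13.5%, and Cacna1d, the calcium channel above, from 78.1% and 73.9% to 41.7% and 42.5%. In Cacna1d the counts on the retained-intron transcripts had a log2 ratio of -0.35 and its other counts 1.77, so its lower share went with a rise of the other forms. In Cpsf4 the same ratios were -4.40 and 0.75. Among the genes with a higher share were Leng8, from 4.57% and 6.63% to 27.9% and 31.3%, and Nop53, a ribosome assembly factor, from 6.13% and 4.03% to 19.5% and 26.4%.

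**Figure D4:**
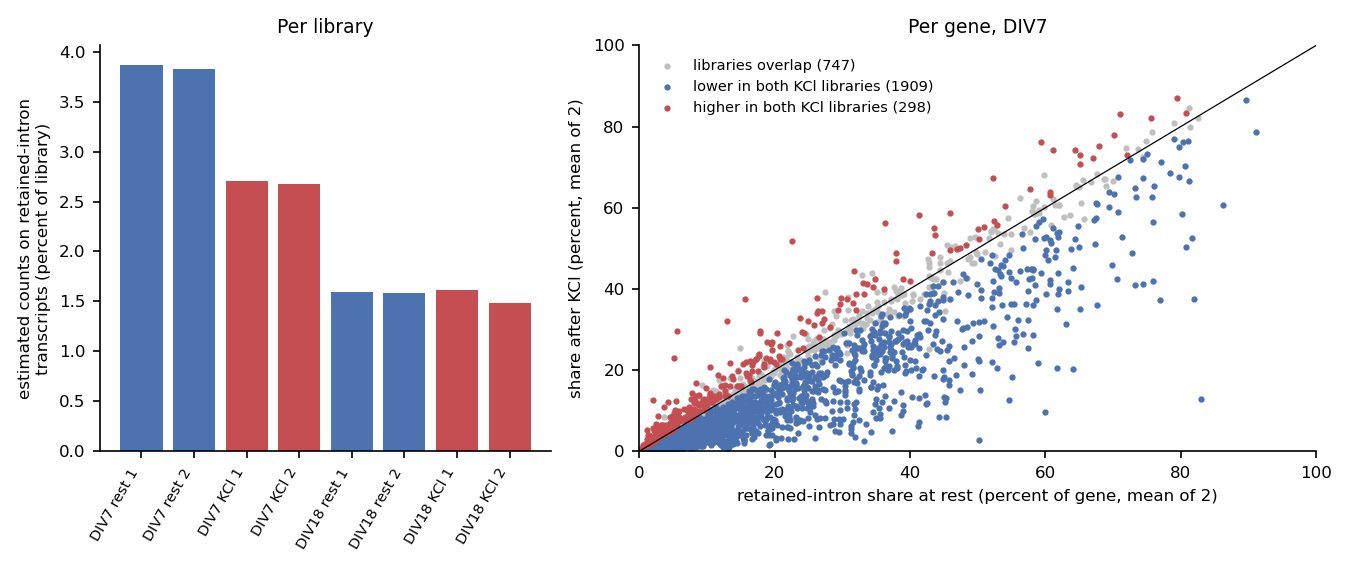
Left, percent of all estimated counts on retained-intron transcripts in each DIV7 and each non-targeting DIV18 library (blue rest, red KCl); right, retained-intron share of each of 2954 genes at rest (x axis) and after KCl (y axis) at DIV7, means of 2 libraries in percent, with the diagonal. Shares dropped from 3.87% and 3.83% to 2.71% and 2.68% at DIV7, and 1909 genes (blue) lie below the diagonal without overlap.

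The test on single transcripts had less power, with a common biological coefficient of variation of 37.2% against 6.44% for genes. Of 53122 transcripts tested, 239 (0.45%) were called higher and 483 (0.909%) lower by edgeR. Retained-intron transcripts made up 273 of the falls and 16 of the rises among 10763 tested (median log2 fold change -0.55), and protein-coding transcripts 136 of the falls and 179 of the rises among 29793 tested (median 0.06). Leaving out any 1 library left at most 4 rises and 0 falls by edgeR, with 4302 to 6636 falls at an unadjusted p under 0.05, while DESeq2 called 1881 falls with all libraries; so single transcripts are described below by their shares per library.

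Transcript usage, meaning the share of each transcript in its gene's output, was called changed in 1064 of 10801 genes (9.85%, edgeR). On simulated data most calls of this test were of unchanged genes, and it missed most changed ones. Many of the 1064 may thus be unchanged genes, and the same holds for the sets drawn from them below. A stricter fit of the shares on the logit scale with limma, added after the data were seen, called 111 of 10670 genes, 95 of them shared. Leaving out any 1 library gave between 514 and 598 genes. Most genes called for usage, 813, were not called at the gene level. Among genes at 10 CPM or more, the transcript that lost most share was a retained-intron form in 450 of the 957 called (47.0%), against 26.9% of the 7296 not called.

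The output of Homer1 shifted from long to short forms. The forms that end early gained: Homer1-205 went from 0.452% and 0.256% of the gene's TPM to 15.2% and 17.0%, Homer1-206 from 3.82% and 2.80% to 25.01% and 24.9%, and Homer1-204 from 11.2% and 10.5% to 29.5% and 28.5%. These cover 56.0 to 63.0 kb of the gene. The forms that cover 83.0 to 98.9 kb lost share, Homer1-207 from 33.6% and 40.2% to 12.8% and 13.8% and Homer1-203 from 28.2% and 29.8% to 11.5% and 9.76%. No library of either state overlapped the other state in these 5 forms (usage adjusted p 2.67e-05, edgeR; 0.0328 on the logit scale, limma). The short forms are known as Homer1a and its relatives, which lack the coiled coil that links synaptic scaffolds. The long forms did not lose level as transcripts: Homer1-207 and Homer1-203 had log2 fold changes of 0.23 and 0.26 and were not called.

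Nr4a1, a nuclear receptor and early gene, shifted from a form with a far upstream start to one with a nearer start. Nr4a1-201, the shorter form of 7.95 kb, went from 2.49% and 5.22% to 72.6% and 73.4%, while Nr4a1-202, of 20.5 kb, went from 53.5% and 61.4% to 2.69% and 2.71%, with no overlap between states. The whole gene went from 9.30 and 10.5 CPM to 512 and 563 CPM, so the smaller share of Nr4a1-202 does not show a lower level. Bdnf-209 went from 14.1% and 18.9% of Bdnf to 36.3% and 38.4%, and Bdnf-201 from 42.4% and 44.7% to 32.8% and 29.1%; the usage of Bdnf did not pass (adjusted p 0.0615, edgeR). Crem and Arc did not pass either (adjusted p 0.0983 and 0.770, edgeR).

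In several genes the coding form gained share while intron-holding or decay-annotated forms lost it. Clk1-201, the coding form of this SR protein kinase, went from 29.2% and 31.2% to 75.1% and 74.9%, while the retained-intron form Clk1-204 went from 27.3% and 27.6% to 7.04% and 6.19%; the gene itself was not called (log2 fold change 0.24). Rsrp1-201 went from 27.0% and 16.7% to 80.6% and 81.0%. Wsb1-201, the coding form of a ubiquitin ligase receptor, went from 29.6% and 26.2% to 76.0% and 72.5%, with Wsb1-205, a form annotated for nonsense-mediated decay, going from 35.6% and 37.9% to 12.5% and 16.5%. Each of these 3 genes also passed on the logit scale (adjusted p 0.0320 to 0.0330, limma). Dgcr8, a subunit of the microRNA processing complex, and Hook1, a dynein adaptor, showed the same pattern, Dgcr8-201 going from 34.8% and 38.2% to 79.7% and 75.9% and Hook1-201 from 21.9% and 20.4% to 63.4% and 61.9%. The rule also named Abca7, Cited2, Dynlt1c, Nup205, Prmt6 and Recql5; of these, Cited2, Dynlt1c, Nup205 and Recql5 did not pass on the logit scale.

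The response at DIV7 was set against that of the non-targeting cultures at DIV18 (2 resting and 2 KCl libraries, none shared). Age, the guide RNA vector, the RNA fraction and DMSO, which the labels give for the DIV7 cultures and not for these, differ together and cannot be told apart. Of 21072 genes in the joint fit, the response differed in 494: it was more positive at DIV7 in 127 (0.603%) and more negative in 367 (1.74%), by edgeR. Among the 20 largest falls 19 differed, with a median log2 response of -2.05 at DIV7 and -0.04 at DIV18, where 11 were below 0 and 9 above. Among the 12 largest rises 10 differed, with medians of 2.37 and 0.09. Both sets were chosen by their changes in these same DIV7 libraries, which favours such differences, so these counts are no separate evidence. Txnip had a response of -0.43 at DIV18, Mycn 0.38 and Tiparp 0.09. Ccn1 had a response of 1.16 at DIV18, and the classic early genes had a median of 1.27 at DIV18 against 3.03 at DIV7.

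The numbered zinc finger genes had a median response of -0.03 at DIV18. Of the 340, 56 had a more negative response at DIV7 and 3 a more positive one. Over the 19437 genes tested at DIV7 that entered the joint fit, the counts were 363 and 125. This list stands out by its falls in the same DIV7 libraries, which favours such differences, so its count is no separate evidence. Retained-intron transcripts held 1.59% and 1.58% of counts in the resting DIV18 libraries and 1.61% and 1.49% in the KCl ones, which overlap. The number of genes with a different response depended on single libraries, being 108 to 141 without any 1 DIV7 library and 252 without the second resting DIV18 library.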

How the data were processed

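Messenger RNA of 4 DIV7 libraries was analysed, and 4 DIV18 libraries with a non-targeting guide were used for the comparison of responses. The authors quantified transcripts with kallisto after FastQC and cutadapt, per the submitters' processing notes, which give no versions. The deposited tables hold the authors' estimated counts per transcript and, beside them, their TPM values, which are scaled for transcript length and library size, per the file headers. The genome build, annotation and use of strand are not given in the sources used here. Transcript identifiers were matched to GENCODE M21 (GRCm38): 99.2% of 142552 matched, and the 1123 others held at most 0.467% of a library's counts. Estimated counts were summed per gene, rounded to whole numbers and tested with edgeR 4.0.16 (R 4.3.3; TMM, quasi-likelihood F test, 2 residual degrees of freedom, adjusted p threshold 0.05). Low-count genes were removed with edgeR's default filter. Transcript usage was tested with diffSpliceDGE of edgeR, and shares were taken from TPM, or from counts for retained introns. DESeq2 1.42.0 and limma 3.58.1 served as alternatives. The uncertainty of assigning reads to transcripts is not in the errors.

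The named genes were the 20 largest falls and the 12 largest rises outside the classic early genes. These had at least 5 CPM in the higher group, no overlap between the groups and no predicted-gene symbol. Up to 4 called members of each list (at least 1 CPM) were also named. For isoforms, 12 genes with the largest change of transcript share (at least 10 CPM) were named beside Homer1, Crem, Bdnf and Arc. The members and lists were chosen with earlier results of these data known. Members of a list named beyond its 4, Crtc1, Atf4, Malat1, Meg3, the genes given for retained introns and the sex-linked genes were chosen after their values were seen. All tests were tried on simulated data. Those on genes, transcripts and differences of responses made more calls of unchanged features than the threshold allows, most often for transcripts. Most calls of edgeR's usage test were of unchanged genes and it missed most changed ones, and the limma fit on logit shares made no calls there.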

Additional observations from a re-analysis of the deposited data

Results flagged for a closer look

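In 29 of the 32 genes with the largest changes, the response to KCl differed between DIV7 and the non-targeting DIV18 cultures by the interaction test of edgeR (adjusted p under 0.05 over 21072 genes). The 32 genes were chosen by their large changes at DIV7, and this test uses the same DIV7 libraries. That choice favours a difference in the DIV7 direction, so the count of 29 is no separate evidence. Each value below is the log2 response at DIV7 minus that at DIV18, from 2 libraries per state at each age. Age, the guide RNA vector, the RNA fraction and the labelled DMSO differ together between the cultures and cannot be told apart.

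Among the falls, the difference was -4.05 for Txnip, the alpha-arrestin, and -3.52 for Col15a1, a basement membrane collagen whose response was -1.91 at DIV7 and 1.61 at DIV18. It was -2.80 for Spaca6, -2.53 for Miip, -2.48 for Zcchc3, -2.43 for Mycn, -2.32 for Srrm4os and -2.19 for Lrch4. Zinc finger genes had differences of -2.16 (Zfp128), -2.09 (Zfp87), -2.09 (Zscan2), -1.97 (Zfp72) and -1.74 (Zfp748). The values were -2.09 for Insm1, -1.84 for Dvl2, -1.83 for Rbm24, -1.79 for Plagl2, -1.67 for Skp2 and -1.66 for Arrdc3. All of these responses were more negative at DIV7.

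Among the rises, the difference was 3.70 for Mc1r, 3.42 for Ccn1, 2.80 for Hspa1b, 2.71 for Gadd45b, 2.63 for Tiparp and 2.42 for Ahnak. It was 2.33 for Spty2d1, 2.24 for Pcsk1, 2.03 for Fbxo33 and 1.67 for Ptp4a1. The difference did not pass for Snhg20 among the falls, nor for Ucp1 and Maff among the rises.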

How the results depend on the processing

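The directions of the 138 named genes held in every alternative run, and 96 of them, with all 32 of the largest changes, kept their call in all 10. Counts moved more. For the 1455 rises and 1916 falls, DESeq2 gave 845 and 1093. Offsets for effective length gave 933 rises, and no filter on low counts gave 2266. Leaving out 1 library gave 636 to 1112 rises and 823 to 1518 falls, and 104 to 145 falls among the zinc finger genes. For transcripts (239 rises and 483 falls), DESeq2 gave 1509 and 1881, no filter gave 418 and 772, and leaving out 1 library gave 0 to 4 and 0 to 0 by edgeR. For transcript usage (1064 genes), diffSplice of limma gave 1977, the logit fit added after seeing the data 111, no filter 610, and leaving out 1 library 514 to 598. For the 494 differences from DIV18, no filter gave 1329 and leaving out 1 library 108 to 452. Median-of-ratios scaling moved none of these 7 counts by over 1.5 times. For retained introns, with alternatives added after seeing the data, the share of genes with a lower value was 65.5% at 200 mean counts or more and 61.1% with shares of TPM, against 64.6%. The cause of these moves was not tested.

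With the replicate number as a block (replicate block), 2742 rises and 3115 falls were called among genes, 1 rise and 0 falls among transcripts by edgeR, 590 genes for usage and 157 differences from DIV18. The labels do not tie a number to an embryo, and the deviations of same-numbered libraries correlated at 0.0201 across all genes tested, so the fit without the block was kept. Sex-linked genes and Gad1 did run with the number in both states, so a shared source of same-numbered libraries was not settled.

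With 2 libraries per state, changes of under 1.5-fold rest on few values, and only the spread between these samples is measured. Transcripts were limited most, with a variation of 37.2% against 6.44% for genes.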

Other observations

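Transcripts of the sex-linked genes, chosen after their values were seen, differed between libraries of the same state. Xist, the RNA that silences an X chromosome, was at 920 and 1170 CPM at rest and at 848 and 1017 CPM after KCl. Eif2s3y, on the Y chromosome, was at 17.2 and 10.3 CPM at rest and at 18.2 and 9.36 CPM after KCl, and Kdm5d at 17.2 and 11.5 CPM and then 17.3 and 11.2 CPM. Every library thus held both Xist and Y-linked transcripts, with more Y-linked RNA in the first library of each state, although the protocol counts the cortex of each embryo as a replicate. Gad1, which makes GABA, was likewise at 108 and 149 CPM at rest and at 122 and 178 CPM after KCl. Ddx3y, a Y-linked RNA helicase, was at 17.6 and 8.10 CPM at rest and at 54.2 and 30.8 CPM after KCl (log2 fold change 1.71, adjusted p 0.0206, edgeR), while DESeq2 gave an adjusted p of 0.0742.

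Protein-coding genes called higher by under 2-fold had a tested gene ending within 5000 bases upstream on the same strand in 8.02% of cases, and those called lower by at least 2-fold in 9.43%, against 13.4% of all protein-coding genes tested.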
